A study of Mus musculus with 10 samples.

Results

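Tumours of TH-MYCN mice were compared after 5 days of a drug combination and without treatment. TH-MYCN is a mouse model of neuroblastoma in which a MYCN transgene is driven by the tyrosine hydroxylase promoter in cells of the developing sympathetic nervous system. One drug, MLN8237, is known as alisertib and blocks Aurora-A, a kinase of mitosis. Its partner, AZD6738, is known as ceralasertib and blocks ATR, a kinase that answers stalled replication. The design text joins both drug names with "or" while the sample titles name a combination, and the sources used here give no dose, schedule, age or sex. The comparison uses every untreated tumour (n = 3) and every tumour taken after 5 days (n = 4), 7 of the 10 libraries of the series. The other 3 were taken at 24 h and stayed out of the comparison. All 7 tumours carry the transgene, so the comparison describes treatment within MYCN-driven tumours and holds no normal tissue. The labels do not say whether the numbered repeats came from separate mice, so p-values measure the spread between these tumours.

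Aurora-A drives centrosome maturation and spindle assembly and is itself made mainly in G2 and mitosis. In MYCN-amplified neuroblastoma it also binds MYCN protein and protects it from degradation. ATR acts through its effector CHK1 to slow origin firing and to hold cells before mitosis when replication forks stall, and it is needed most in S phase. Neuroblastoma cells of the adrenergic type keep the transcription factors and catecholamine enzymes of sympathetic neuroblasts, and the bulk tumour adds macrophages, fibroblasts, vessels and neighbouring tissue.

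Totals of the 7 libraries lay between 5620005 and 5696436 counts, a range of 1.36%, with 19790 to 21264 genes detected. A count of 0 allows up to 3 counts, or 0.527 to 0.534 CPM (each library's counts scaled to a common total), for counting error only. Th, the transgene's promoter gene and the first enzyme of catecholamine synthesis, was found in each tumour, at 122, 95.7 and 78.4 CPM in untreated libraries 1 to 3 and 62.8, 75.7, 105 and 67.7 CPM in 5-day libraries 1 to 4. Gata3, a transcription factor of sympathetic neuroblasts, stood at 85.8, 73.2 and 82.9 CPM and 21.6, 55.8, 62.9 and 69.4 CPM in the same order. One library stood apart from all others. The mean rank correlation of 5-day library 1 with the other 6 was 0.730, against 0.926 to 0.939 for the rest, and it lay alone at one end of the first principal component, which held 78.9% of the variance. Its summed macrophage genes reached 18160 CPM against 1293, 730.2 and 1109 CPM untreated and 2066, 1972 and 1246 CPM in 5-day libraries 2 to 4, and its fibroblast genes 24980 CPM against 1817, 1596 and 4334 CPM and 2338, 3609 and 699.9 CPM. Of the 27 listed adrenergic genes, 24 had their lowest level of the 7 libraries there. In bulk RNA, fewer cells of a type and less RNA per cell cannot be told apart. Most list results below are therefore given both with all 7 libraries and without 5-day library 1, and most named genes with each library's value.

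Other tissues were also uneven among the libraries. Summed adrenal cortex steroid genes were at 11.8, 15 and 24.1 CPM untreated and 65, 1742, 102 and 12.4 CPM at 5 days, so that 5-day library 2 was far above the rest. Skeletal muscle genes were at 3.11, 3.93 and 6.03 CPM and 12.6, 759, 10 and 250.1 CPM, high in 5-day libraries 2 and 4. Hepatocyte genes reached 382, 535, 5.25 and 2.96 CPM at 5 days and 0.173, 5.98 and 76.2 CPM untreated, and kidney tubule genes were highest in untreated library 3. Ddx3y, a Y-linked RNA helicase, was at 65.4, 3.76 and 62.7 CPM untreated and 5.06, 81, 92.7 and 60.9 CPM at 5 days, low in untreated library 2 and 5-day library 1. The part of these differences in the results below was not tested, except where a value without a library is given.

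No gene passed the test between 5 days and untreated. Using all 7 libraries, edgeR's quasi-likelihood test covered 14595 genes and 0 were called at an adjusted p under 0.05 (0%), the smallest adjusted p being 0.709. At an unadjusted p under 0.05, 378 genes were higher (2.59%) and 170 lower (1.16%). Groups did not overlap, that is, each 5-day library lay above or below each untreated one, for 618 genes on the higher side (4.23%) and 715 on the lower side (4.9%). The biological coefficient of variation was 46.3%. It was 19.7% without 5-day library 1, where 14258 genes were tested with 0 called (0%) and a smallest adjusted p of 0.0728. In that comparison 663 genes (4.65%) had an unadjusted p under 0.05 on the higher side and 531 (3.72%) on the lower side, and groups did not overlap for 985 (6.91%) and 1093 (7.67%). The log2 fold change was above 0 for 51.3% of genes with all 7 libraries and for 49.4% without 5-day library 1. These shares are the background for every count of members below. With all 7 libraries the same test recovered 0% of simulated 2-fold and 15% of simulated 4-fold changes. The count of 0 called genes therefore does not show that genes were unchanged.

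Another tool called some genes. DESeq2 called 22 genes with all 7 libraries, 17 higher and 5 lower. Without 5-day library 1 it called 87 higher (0.707% of the 12310 genes with an adjusted p) and 29 lower (0.236%), while limma voom with quality weights called 0 in both. On simulated counts with 200 changed genes DESeq2 made 51 false calls with all 7 libraries and 29 without 5-day library 1. The named genes and lists that follow are therefore described by their values and counts, and no change is called by the main test.

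**Figure D1:**
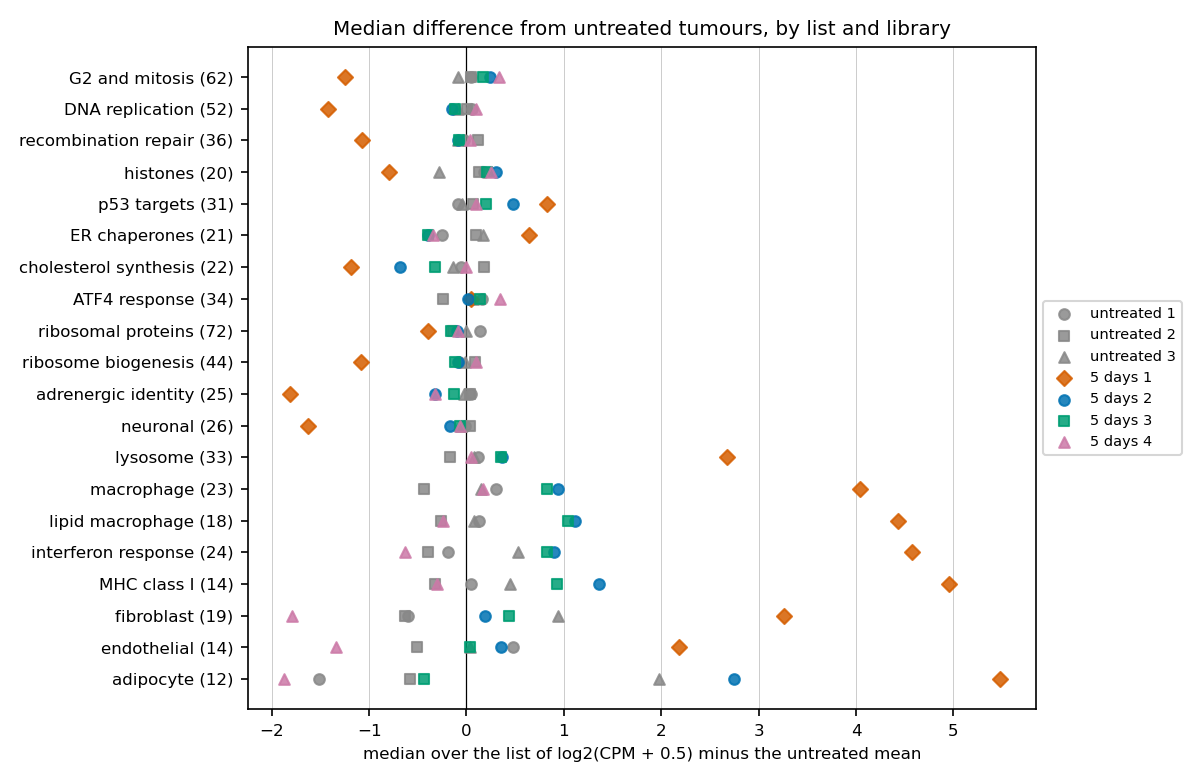
Median over the tested members of each list of log2(CPM + 0.5) minus the untreated mean, one point per library, with the number of members in parentheses. Grey points are untreated libraries. 5-day library 1 lies alone for most lists, while 5-day libraries 2 to 4 lie within 1 log2 unit of untreated for the tumour-cell lists.

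Genes of G2 and mitosis were higher in 5-day libraries 2 to 4 and lowest in 5-day library 1. Without that library, 56 of 62 tested members had a log2 fold change above 0, 31 with an unadjusted p under 0.05 and none on the lower side, and 28 did not overlap with untreated, all higher (background 6.91%). Their median log2 fold change was 0.23, against 0.00 over all tested genes. The list split evenly with all 7 libraries, 31 higher and 31 lower, with 0 members not overlapping and a median of 0.00. In 5-day library 1, 61 of the 64 listed genes had their lowest level of the 7 libraries. DESeq2 without 5-day library 1 called 11 members higher and 0 lower (background 0.707% and 0.236%).

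Aurka, which encodes the target of MLN8237, lies at chr2:172356190-172370535, minus strand (mm10). It was at 124, 137 and 121 CPM in the untreated tumours and 58.6, 204, 167 and 181 CPM at 5 days. 5-day libraries 2 to 4 lay above every untreated one and 5-day library 1 below them. Its log2 fold change was 0.53 ± 0.10 (SE) without 5-day library 1 (adjusted p = 0.169) and 0.26 ± 0.39 with it (adjusted p = 0.82). Bora, Tpx2 and Cep192, which activate or anchor Aurora-A, also lay above untreated in 5-day libraries 2 to 4. So did Plk1, the kinase that Aurora-A switches on, at 215, 222 and 198 CPM untreated and 76.2, 266, 234 and 299.8 CPM at 5 days. Cdc25c, the phosphatase that switches on CDK1 at mitotic entry, was at 63.5, 53.7 and 46.7 CPM and 24, 76.6, 70.5 and 80 CPM. These genes with Aurka, Clspn and Chek1 make up the 8 of 22 Aurora and ATR pathway members without overlap when 5-day library 1 is left out. Of these, 7 were higher and 1 lower (background 6.91% and 7.67%). With all 7 libraries only Chek1 was without overlap, on the lower side. Aurka, Aurkb, Plk1, Tpx2, Cdc25b and Cdc25c stand in the mitotic list as well.

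Among motor and spindle genes, Kif18a, a kinesin that dampens chromosome movements, was at 55, 49.9 and 44.6 CPM untreated and 20.9, 74.7, 70.7 and 80.2 CPM at 5 days. Its log2 fold change without 5-day library 1 was 0.59 ± 0.11 (adjusted p = 0.156), the largest of the list. Troap, a spindle-associated protein, was at 58.3, 53.2 and 53.6 CPM and 22.9, 77.1, 72.5 and 87.9 CPM. Kif23, the motor of the central spindle in cytokinesis, was at 109, 119 and 112 CPM and 57.5, 159.8, 149 and 147 CPM. In all of these, 5-day libraries 2 to 4 lay close together and above untreated. The anaphase activator Cdc20 and cyclin B1 (Ccnb1) followed the same order, at 254, 242 and 239 CPM against 98.6, 314, 307 and 348 CPM and 171, 151 and 143 CPM against 57.2, 206, 188 and 215 CPM; both were chosen after their values were seen.

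Not every proliferation gene took part. Mki67, the Ki-67 antigen, was at 746, 891 and 680.4 CPM and 348, 854, 906 and 929 CPM, with overlap. Top2a, the topoisomerase that untangles replicated chromosomes, was at 689.7, 794 and 655 CPM and 241, 670.2, 642 and 654 CPM, and its log2 fold change without 5-day library 1 was -0.12 ± 0.09. Cdk1, Mad2l1, Spc24, Ube2c and Melk were the other 5 members on the lower side, each overlapping with untreated. The 6 were named after their values were seen.

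**Figure D2:**
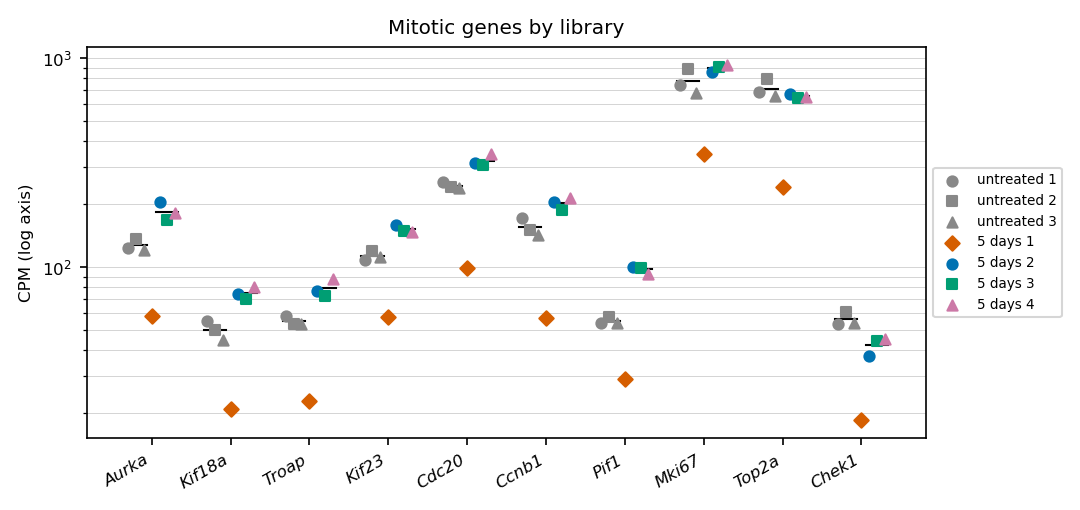
CPM of 10 cell cycle genes in each library on a log axis, with short lines at the mean of untreated libraries and of 5-day libraries 2 to 4. 5-day library 1 is lowest for each gene, while for Aurka, Kif18a, Troap, Kif23, Cdc20, Ccnb1 and Pif1 the other 3 lie above all untreated libraries, and for Chek1 below them.

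Mitotic genes are known to be silenced in early cell cycle phases through a short promoter element, the cell cycle homology region (TTTGAA or TTCGAA), bound by the DREAM complex, often beside CCAAT boxes bound by NF-Y. Of 64 listed genes, 55 matched a RefSeq promoter window (GRCm38.p6), of which the 250 bases before the start were searched on both strands. The cell cycle homology region was in 21 of these (38.2%) against 19.6% of 27025 genes with a window, and CCAAT in 39 (70.9%) against 37.5%. The E-box CACGTG, bound by MYC and MAX, was in 6 (10.9%) against 6.86%. The list was drawn up from known mitotic genes, so these shares describe the choice of list and not the treatment. The windows below were picked by smallest p among members that hold both elements. The end of the RefSeq window also had to match the first part of an annotated transcript. Capitals mark CCAAT and the cell cycle homology region on either strand. The windows show the elements close to the start: Cdc20 at chr4:118437344-118437593, Ccnf, which encodes cyclin F, at chr17:24251410-24251659, and Ckap2l, a spindle pole protein, at chr2:129297213-129297462, all on the minus strand. The letters are a description and not a site of measured binding.
Cdc20: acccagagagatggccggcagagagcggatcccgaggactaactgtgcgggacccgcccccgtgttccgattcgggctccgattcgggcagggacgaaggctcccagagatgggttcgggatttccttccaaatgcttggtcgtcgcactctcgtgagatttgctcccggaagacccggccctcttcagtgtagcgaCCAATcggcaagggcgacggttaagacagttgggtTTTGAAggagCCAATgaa
Ccnf: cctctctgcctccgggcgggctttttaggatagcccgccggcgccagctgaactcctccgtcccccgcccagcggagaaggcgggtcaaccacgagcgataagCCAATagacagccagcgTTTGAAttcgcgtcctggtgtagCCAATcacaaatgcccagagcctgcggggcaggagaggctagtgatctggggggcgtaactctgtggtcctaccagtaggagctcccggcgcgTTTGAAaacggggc
Ckap2l: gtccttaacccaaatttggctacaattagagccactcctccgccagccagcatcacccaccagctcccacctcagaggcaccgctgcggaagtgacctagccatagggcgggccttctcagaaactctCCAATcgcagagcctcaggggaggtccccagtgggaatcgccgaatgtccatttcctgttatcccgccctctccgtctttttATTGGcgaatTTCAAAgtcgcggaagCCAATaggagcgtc

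Genes of the ATR arm lay on both sides of untreated. Atr itself was at 44.3, 58.6 and 45.5 CPM untreated and 27.5, 51.5, 55.6 and 57 CPM at 5 days, with overlap. Chek1, which encodes the kinase that ATR activates, was at 53.3, 60.9 and 54.3 CPM and 18.5, 37.6, 44.1 and 45.4 CPM, so that all 4 treated libraries lay below untreated, with a log2 fold change of -0.41 ± 0.11 without 5-day library 1 (adjusted p = 0.358) and -0.62 ± 0.30 with it. Chek2, the kinase of the ATM branch that answers double-strand breaks, was higher in 5-day libraries 2 to 4. It was at 28.2, 22.1 and 24.1 CPM and 26.4, 39, 36.1 and 37.9 CPM, with a log2 fold change of 0.60 ± 0.13 without 5-day library 1 (adjusted p = 0.233). The 36 recombination, Fanconi and checkpoint genes otherwise centred on no difference without 5-day library 1, with a median of -0.02. In that comparison 2 members were without overlap on the higher side and 5 on the lower side (background 6.91% and 7.67%). With all 7 libraries 28 were below 0 and the median was -0.21. H2afx, the histone variant phosphorylated at breaks, was at 267, 250.3 and 244 CPM and 85, 170.5, 206 and 227 CPM, below untreated in all 4.

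DNA replication genes centred near 0 or below it. Of 52, 17 were above 0 without 5-day library 1, 9 did not overlap and were all lower (background 7.67%), and their median was -0.04. Using all 7 libraries, the median was -0.29, 9 were lower without overlap (background 4.9%) and none higher. Cdc6, which loads the replicative helicase in G1, was at 44.8, 55.5 and 42.2 CPM and 13.7, 27.1, 32.4 and 35.6 CPM. Its log2 fold change was -0.59 ± 0.15 (adjusted p = 0.304) without 5-day library 1 and -0.80 ± 0.32 with it. Pold3, a subunit of DNA polymerase delta, was at 77.1, 69.1 and 73.2 CPM and 53.5, 59.6, 56.6 and 58.6 CPM. Gins3, a subunit of the replicative helicase, and Uhrf1, which maintains DNA methylation behind the fork, were also lower in all 4. Among 20 tested replication-dependent histone genes 18 were above 0 without 5-day library 1, with a median of 0.22. Only 2 did not overlap in that comparison, Hist1h1c and Hist1h2ao. With all 7 libraries 14 were above 0, 1 did not overlap and the median was 0.10. Hist1h1c, a linker histone gene, was at 9.51, 6.33 and 6.89 CPM and 161, 38.5, 22 and 13.1 CPM, and histone rows share reads with near-identical copies and lack the poly(A) tail for which the libraries were selected.

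p53 targets were higher with or without 5-day library 1. Without it, 28 of 31 tested members were above 0 (49.4% of all genes), 7 did not overlap and were all higher (background 6.91%), and the median was 0.23. Using all 7, 27 were above 0, 3 were higher without overlap (background 4.23%) and the median was 0.46. Bbc3, which encodes the death-promoting protein PUMA, was at 35.1, 26.3 and 33.1 CPM untreated and 30.4, 51.5, 53.5 and 60.4 CPM at 5 days. It was above untreated in 5-day libraries 2 to 4 and not in the first, with a log2 fold change of 0.80 ± 0.13 without it (adjusted p = 0.13). Sesn2, a sestrin that restrains mTORC1 and answers to ATF4 as well as p53, was at 6.92, 6.15 and 6.03 CPM and 48.7, 24.2, 8.98 and 20.1 CPM, above untreated in all 4. Its log2 fold change was 1.47 ± 0.34 without 5-day library 1 (adjusted p = 0.278) and 2.00 ± 0.56 with it. Ppm1d, the phosphatase that shuts p53 signalling off, was at 38.4, 41 and 37.7 CPM and 31.3, 43.1, 56.8 and 61.9 CPM.

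The classical targets Cdkn1a and Mdm2 were less clear. Cdkn1a, which encodes the CDK inhibitor p21, was at 10, 26.5 and 14.5 CPM and 188, 50.6, 26.8 and 22.9 CPM, overlapping with untreated library 2. Mdm2, the ubiquitin ligase of p53, was at 93, 103 and 98.5 CPM and 146, 109, 101 and 107 CPM. Psrc1, a member of the list that also serves the spindle, was at 71.4, 66.2 and 61.3 CPM and 42.9, 125, 85.8 and 102 CPM, the order of the mitotic genes. Of 13 further BCL2 family and caspase genes, a list that leaves out Bbc3 as a p53 target, 0 were higher and 0 lower without overlap, and of 8 CDK inhibitor and RB family genes only Rbl2 was, higher. DESeq2 without 5-day library 1 called 4 p53 targets higher (background 0.707%), namely Bbc3, Psrc1, Sesn2 and Trp53inp1.

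Chaperones of the endoplasmic reticulum were lower in 5-day libraries 2 to 4 and high in the first. The unfolded protein response raises these genes through the factors ATF6 and XBP1 when folding load exceeds capacity. Without 5-day library 1, 16 of 21 members were below 0, 13 with an unadjusted p under 0.05 (background 3.72%) and 11 without overlap (background 7.67%), with a median of -0.37. DESeq2 called 6 of them lower (background 0.236%). With all 7 libraries the median was -0.09 and 2 members were without overlap on the lower side. 5-day library 1, which also had the highest fibroblast sum, was the highest of the 7 libraries for 15 of the 21, and the part of other cell types in this was not tested.

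Creld2, an ER-resident protein released upon calcium loss, was at 49.3, 62.4 and 70.3 CPM untreated and 49.1, 36.6, 37.6 and 40.5 CPM at 5 days. All 4 treated libraries lay below untreated, with a log2 fold change of -0.67 ± 0.14 without 5-day library 1 (adjusted p = 0.218) and -0.57 ± 0.17 with it (adjusted p = 0.709). Manf, an ER-stress-induced survival factor, was likewise lower in all 4, at 127, 147 and 158 CPM and 105, 95.3, 109 and 105 CPM. The disulphide isomerase genes Pdia3 and Pdia6 were lower in 5-day libraries 2 to 4 and highest in the first, at 368, 446 and 457 CPM against 662, 305, 308 and 321 CPM and 173, 228 and 244 CPM against 372, 142, 146 and 149.5 CPM. Hspa5, which encodes the main ER chaperone BiP, was at 479, 738 and 869 CPM and 933, 486, 438 and 472 CPM. Untreated library 1 sat at the level of the treated ones, so the groups overlapped, and untreated library 1 was the lowest untreated library for most of these genes. Xbp1, the transcription factor of the response, was at 87, 113 and 138 CPM and 201, 78.8, 70.7 and 75.3 CPM. The sensors did not share the pattern: Ern1 was higher without overlap, at 14.9, 13.3 and 12.4 CPM and 62.8, 24.9, 17.4 and 16.7 CPM, while Atf6 and Eif2ak3 had log2 fold changes of 0.22 and 0.24 with overlap.

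Some promoters of the list hold the ER stress element, which reads CCAAT, 9 bases of any kind, then CCACG, and which ATF6 and NF-Y bind together. This motif was added to the search after the values were seen. It was in 7 of the 18 listed genes with a RefSeq window (38.9%), against 0.13% of 27025 genes, and CCAAT alone was in 16 of 18 (88.9%). The list was drawn up from known genes of this response, so these shares describe the choice of list and not the treatment. The 7 were Calr, Canx, Creld2, Dnajc3, Hsp90b1, Hspa5 and Pdia6. Their log2 fold changes without 5-day library 1 were all below 0, from -0.67 for Creld2 to -0.24 for Canx, beside 16 of all 21 listed genes. In that comparison Creld2, Pdia6 and Calr lay below untreated without overlap, while Hspa5 overlapped. Windows of these 4 are printed with the element in capitals, the complement strand being read for Creld2 and Calr. They lie at chr15:88819396-88819645 (plus strand), chr12:17266339-17266588 (plus strand), chr8:84846932-84847181 (minus strand) and chr2:34771840-34772089 (plus strand) in GRCm38.p6.
Creld2: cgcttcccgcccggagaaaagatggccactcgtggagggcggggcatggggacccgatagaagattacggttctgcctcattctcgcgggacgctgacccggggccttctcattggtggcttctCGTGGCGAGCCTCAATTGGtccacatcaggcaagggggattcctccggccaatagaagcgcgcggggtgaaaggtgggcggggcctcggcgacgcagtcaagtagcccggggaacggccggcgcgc
Pdia6: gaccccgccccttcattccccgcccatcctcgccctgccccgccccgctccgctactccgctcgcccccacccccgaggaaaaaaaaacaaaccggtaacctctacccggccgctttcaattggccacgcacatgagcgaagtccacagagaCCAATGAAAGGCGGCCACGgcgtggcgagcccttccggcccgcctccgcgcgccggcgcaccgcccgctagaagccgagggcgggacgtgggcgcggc
Calr: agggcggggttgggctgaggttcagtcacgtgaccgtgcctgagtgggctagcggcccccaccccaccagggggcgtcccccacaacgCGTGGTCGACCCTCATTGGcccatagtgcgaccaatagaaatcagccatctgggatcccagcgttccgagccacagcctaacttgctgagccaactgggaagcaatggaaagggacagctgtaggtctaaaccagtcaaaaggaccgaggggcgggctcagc
Hspa5: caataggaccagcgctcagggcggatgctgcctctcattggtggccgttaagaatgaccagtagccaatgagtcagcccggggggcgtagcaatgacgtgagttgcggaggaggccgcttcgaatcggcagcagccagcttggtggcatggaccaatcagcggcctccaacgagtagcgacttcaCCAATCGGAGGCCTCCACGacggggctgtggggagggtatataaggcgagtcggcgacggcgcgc

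**Figure D3:**
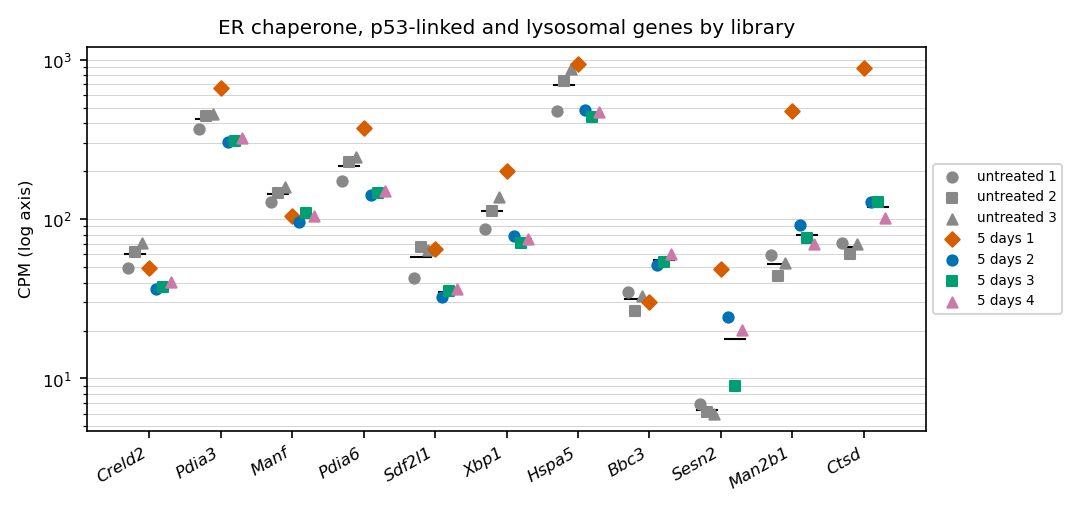
CPM of 7 ER chaperone pathway genes, Bbc3, Sesn2, Man2b1 and Ctsd in each library on a log axis, with short lines at the mean of untreated libraries and of 5-day libraries 2 to 4. 5-day libraries 2 to 4 lie below untreated for Creld2, Pdia3, Manf, Pdia6, Sdf2l1 and Xbp1 and above untreated for Bbc3, Sesn2, Man2b1 and Ctsd.

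Sterol synthesis was lower as well, unevenly among the tumours. Of 22 cholesterol genes, 21 were below 0 without 5-day library 1. In that comparison 4 were lower and 1 (Tm7sf2) higher without overlap (background 7.67% and 6.91%), and the median was -0.28. It was -0.44 with all 7 libraries. Idi1, an isomerase of the mevalonate pathway, was at 43.4, 60.2 and 43.2 CPM and 15.8, 28.3, 32.4 and 38.2 CPM, below untreated in all 4 (log2 fold change -0.57 ± 0.16 without 5-day library 1, adjusted p = 0.398). Hmgcs1, the entry enzyme of the pathway, was at 125, 154 and 115 CPM and 77.1, 68.8, 87.6 and 109 CPM. The median differences of the list from untreated were -1.19, -0.68, -0.32 and -0.01 log2 units in 5-day libraries 1 to 4, so that the last was close to untreated. Fatty acid synthesis genes showed no such pattern. Acaca, the carboxylase that starts fatty acid synthesis, was higher, at 114, 126 and 119 CPM and 645, 207, 140.3 and 150.2 CPM, and Scd1, a desaturase abundant in fat, was at 77.8, 75.7 and 135 CPM and 12550, 1207, 133 and 54.4 CPM, in the same order over the 5-day libraries as the adipocyte genes (178, 227 and 1036 CPM summed untreated and 11220, 1803, 257 and 149.8 CPM at 5 days).

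ATF4 and amino acid genes lay mostly above 0 without 5-day library 1, but most treated libraries stayed within the untreated spread. Of 34, 28 were above 0 without 5-day library 1, with a median of 0.23. In that comparison 4 were higher and 1 lower without overlap (background 6.91% and 7.67%). With all 7 libraries 21 were above 0, 4 were higher without overlap (background 4.23%) and the median was 0.13. Median differences of the list from the untreated mean were 0.15, -0.25 and 0.07 log2 units in untreated libraries 1 to 3. They were 0.04, 0.02, 0.13 and 0.34 in 5-day libraries 1 to 4, so that only 5-day library 4 lay above every untreated one. Ddit4, which encodes the mTORC1 brake REDD1, was at 25.2, 23.2 and 29.6 CPM and 52, 33.8, 43.9 and 41.7 CPM, above untreated in all 4 (log2 fold change 0.61 ± 0.15 without 5-day library 1, adjusted p = 0.278, and 0.72 ± 0.19 with it). Vldlr, a lipoprotein receptor, was at 15, 12.3 and 18.4 CPM and 70.9, 29.2, 21.9 and 32.4 CPM. Of the hypoxia and glycolysis genes, Pdk1, a kinase that keeps pyruvate out of mitochondria, was at 25.4, 22.9 and 22.4 CPM and 104, 48.1, 35.6 and 40.1 CPM, above untreated in all 4 with a log2 fold change of 0.81 ± 0.14 without 5-day library 1 (adjusted p = 0.148). The median of that list was -0.02, with 12 of 26 members above 0, both without 5-day library 1. In that comparison 2 were higher and 4 lower without overlap (background 6.91% and 7.67%). With all 7 libraries 21 were above 0, 2 were higher without overlap (background 4.23%) and the median was 0.25. Nuclear respiratory chain genes had a median of -0.01, and 0.16 with all 7 libraries. All 13 mitochondrially encoded proteins were below 0 without 5-day library 1 and all overlapped, with sums of 31240, 19490 and 31340 CPM untreated and 53240, 30200, 23380 and 18670 CPM at 5 days. With all 7 libraries 12 of the 13 were above 0, again with overlap.

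MYC genes centred near no difference. Mycn was at 78.7, 109 and 99.1 CPM untreated and 21.8, 93.9, 94.7 and 103 CPM at 5 days, a log2 fold change of 0.02 ± 0.12 without 5-day library 1 and -0.29 ± 0.49 with it. The sources used here do not say whether reads of the transgene enter this row. Myc was at 4.32, 2.73 and 5.86 CPM and 26.4, 3.26, 2.37 and 1.22 CPM, highest in the stroma-rich library. Of 33 MYC targets of metabolism and translation, 13 were above 0 without 5-day library 1 (median -0.04, and -0.21 with all 7), and of 44 ribosome biogenesis genes 17 were (median -0.05, and -0.23 with all 7). Cytosolic ribosomal protein genes were mostly below 0 without 5-day library 1, 67 of 72 with a median of -0.12 (-0.18 with all 7). In that comparison 8 were lower without overlap (background 7.67%). Rpl15, the member with the smallest p, was at 249, 216 and 233 CPM and 148, 185, 193 and 177 CPM.

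Adrenergic identity genes were lower in part. Of 25, 19 were below 0 without 5-day library 1, with a median of -0.29. In that comparison 4 were lower and 1 higher without overlap (background 7.67% and 6.91%). With all 7 libraries 23 were below 0 and the median was -0.53. Dbh, the enzyme that makes noradrenaline, was at 65.4, 51.6 and 25.1 CPM untreated and 5.72, 15.4, 19.7 and 11.2 CPM at 5 days. All 4 treated libraries lay below untreated, with a log2 fold change of -1.62 ± 0.40 without 5-day library 1 (adjusted p = 0.391) and -1.86 ± 0.48 with it (adjusted p = 0.709). The core factors Hand2, Tbx2 and Gata3 were also below untreated in all 4. Hand2 was at 28.5, 26.5 and 32.6 CPM and 4.84, 19.4, 20.3 and 18.8 CPM, and Tbx2 at 122, 94.7 and 146 CPM and 22, 63.4, 76.9 and 82.2 CPM. Th had a log2 fold change of -0.25 ± 0.22 without 5-day library 1, with overlap, and Insm1, a neuroendocrine factor, was at 268, 268 and 255 CPM and 75.7, 282, 324 and 321 CPM, above untreated in 5-day libraries 2 to 4 and below it in the first.

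Neuronal genes were slightly lower, 19 of 26 below 0 with a median of -0.12 without 5-day library 1 (-0.33 with it). Without that library 6 were lower and 1 higher without overlap (background 7.67% and 6.91%). Stmn3, a microtubule regulator of neurons, was at 174, 158 and 156 CPM and 44.5, 118, 131 and 133 CPM. Celf4, a neuronal RNA-binding protein, was at 136, 188 and 163 CPM and 49.5, 117, 115 and 118 CPM (log2 fold change -0.48 ± 0.12 without 5-day library 1, adjusted p = 0.28). Schwann cell and glial genes had a median of 0.72 without 5-day library 1, with none of 8 free of overlap. With all 7 libraries the median was 0.79 over 9 tested members, again with none free of overlap. Sox10, their defining factor, was at 1.73, 2.39 and 2.24 CPM and 8.81, 11.5, 8.81 and 1.05 CPM, higher in 3 of the 4.

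Summed lysosomal and macrophage genes were higher in 5-day libraries 2 and 3 and most of all in 5-day library 1. In 5-day library 4 both sums lay within the untreated range. Of 33 lysosomal genes, 31 were above 0 without 5-day library 1, 7 higher and 1 lower without overlap (background 6.91% and 7.67%), with a median of 0.25. With all 7 libraries every one of the 33 was above 0, 7 did not overlap (background 4.23%) and the median was 1.33. Ctsd, the aspartic protease cathepsin D, lies at chr7:142375911-142388038, minus strand (mm10). It was at 71.1, 60.3 and 69.8 CPM untreated and 882, 127, 128 and 102 CPM at 5 days, a mean of 67.1 ± 5.86 CPM (SD, n = 3) against 119 ± 14.8 CPM (SD, n = 3) without 5-day library 1. All 4 treated libraries lay above untreated. Its log2 fold change was 0.83 ± 0.12 without that library (adjusted p = 0.0786) and 2.21 ± 0.88 with it (adjusted p = 0.709). Man2b1, a lysosomal mannosidase, was at 59.6, 44.1 and 53.4 CPM and 475, 91.2, 76.4 and 69.9 CPM, also above untreated in all 4. Ctsd, Ctsb and Man2b1 were among the 4 members that DESeq2 called higher without 5-day library 1 (background 0.707%). Summed lysosomal genes were at 3641, 2806 and 3418 CPM untreated and 30190, 4711, 4909 and 3563 CPM at 5 days, beside macrophage sums of 1293, 730.2 and 1109 CPM and 18160, 2066, 1972 and 1246 CPM, and the part of macrophage number in the lysosomal values was not tested.

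Macrophage identity genes were above 0 in 20 of 23 without 5-day library 1 and in 23 of 23 with it, with medians of 0.58 and 2.34. In each comparison 4 members were higher without overlap (background 6.91% without that library and 4.23% with it). Marco, a scavenger receptor, was at 6.22, 5.13 and 8.44 CPM and 314, 12.9, 16.6 and 10.1 CPM. Mertk, the receptor with which macrophages take up dying cells, was at 13.8, 9.4 and 8.96 CPM and 342, 42.9, 26.3 and 14.7 CPM. Both lay above untreated in all 4, 5-day library 1 far above and 5-day library 4 only just. Cd68, a general macrophage marker, was at 42, 24.3 and 35 CPM and 490.4, 46.7, 48.1 and 40.3 CPM, with overlap. Ptprc, the pan-leukocyte antigen CD45, was at 33, 8.72 and 11.5 CPM and 328, 30.6, 20.7 and 14.1 CPM, also with overlap.

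Genes of lipid-laden macrophages had a median of 0.89 without 5-day library 1 and 2.74 with it. In the first comparison 15 of 18 were above 0 and 4 were higher without overlap (background 6.91%). Atp6v0d2, a proton pump subunit of macrophages and osteoclasts, was at 11.9, 10.6 and 9.48 CPM and 332, 37.4, 37.3 and 19.4 CPM, a log2 fold change of 1.55 ± 0.27 without 5-day library 1 (adjusted p = 0.156). Apoe, the lipid carrier of macrophages, was at 473, 344 and 374 CPM and 10730, 1931, 818 and 628 CPM. Abca1, the cholesterol exporter, was at 52.7, 47.5 and 47 CPM and 1348, 132, 124 and 64.9 CPM. Of 19 tested clearance and efflux genes, it was one of 4 higher without overlap, with or without 5-day library 1 (background 4.23% and 6.91%). In the comparison without that library, 1 member was lower without overlap (background 7.67%). The list's median was 0.29 there and 1.80 with all 7, and its median difference from untreated in 5-day library 4 was -0.43. The summed genes of lipid-laden macrophages ran at 1198, 922 and 1280 CPM untreated and 29030, 3640, 2754 and 1236 CPM at 5 days, so that 5-day library 4 was at the untreated level.

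Interferon and antigen presentation genes differed widely between the treated tumours. The 24 interferon genes tested without 5-day library 1 had a median of 0.47 but none free of overlap, and with all 7 libraries 31 genes were tested, with a median of 3.23 and 1 free of overlap. The 7 added genes passed the filter on low counts only with 5-day library 1, so that the medians rest on different members. Summed levels were 149, 132 and 265 CPM untreated and 4702, 351, 307 and 108 CPM at 5 days. MHC class I genes were at 269, 208 and 342 CPM and 5780, 567, 468 and 219 CPM, with 5-day library 4 at the untreated level again. Nlrc5, the transactivator of class I genes, was above untreated in all 4, at 1.04, 2.22 and 2.41 CPM and 73.8, 7.38, 5.76 and 4.01 CPM (log2 fold change 1.59 ± 0.42 without 5-day library 1, adjusted p = 0.326). MHC class II genes, at 274, 126 and 260.2 CPM and 3224, 500.1, 223 and 105 CPM, overlapped. Chemokine and cytokine genes had a median of 0.11 without 5-day library 1 and 2.32 with it, over 14 and 18 tested members, with none of them free of overlap. T cell genes summed to 19.2, 13.8 and 16.4 CPM and 142, 35.5, 21.9 and 16.4 CPM, and NK and cytotoxic genes to 1.73, 1.2 and 0.345 CPM and 60.1, 3.26, 0.339 and 0.523 CPM, low outside 5-day library 1.

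Stromal medians were above 0 with 5-day library 1 and below 0 without it. Here too a few members (20 against 19 fibroblast, 16 against 14 endothelial and 12 against 11 pericyte genes) were tested only with it. Fibroblast and matrix genes went from a median of 1.65 with all 7 libraries to -0.26 without it, endothelial genes from 0.91 to -0.12 and pericyte and smooth muscle genes from 1.19 to -0.25. Col1a1, the main fibrillar collagen gene, was at 297, 242 and 603 CPM and 5079, 294, 631 and 48 CPM, lowest in 5-day library 4 and highest in the first. Adipoq, the fat cell hormone adiponectin, was at 1.73, 5.13 and 48.1 CPM and 386, 65.2, 3.73 and 0.523 CPM, high in untreated library 3 too. A pair of matrix-associated genes named after their values were seen differed in the other direction from the stroma of 5-day library 1. Mfap2, a microfibril protein, was at 54.5, 47.9 and 52.9 CPM and 29.7, 22.5, 31.9 and 31.6 CPM, and Mfap4 at 27.1, 23.8 and 22.1 CPM and 17.8, 12.2, 9.15 and 14.1 CPM, both below untreated in all 4.

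**Figure D4:**
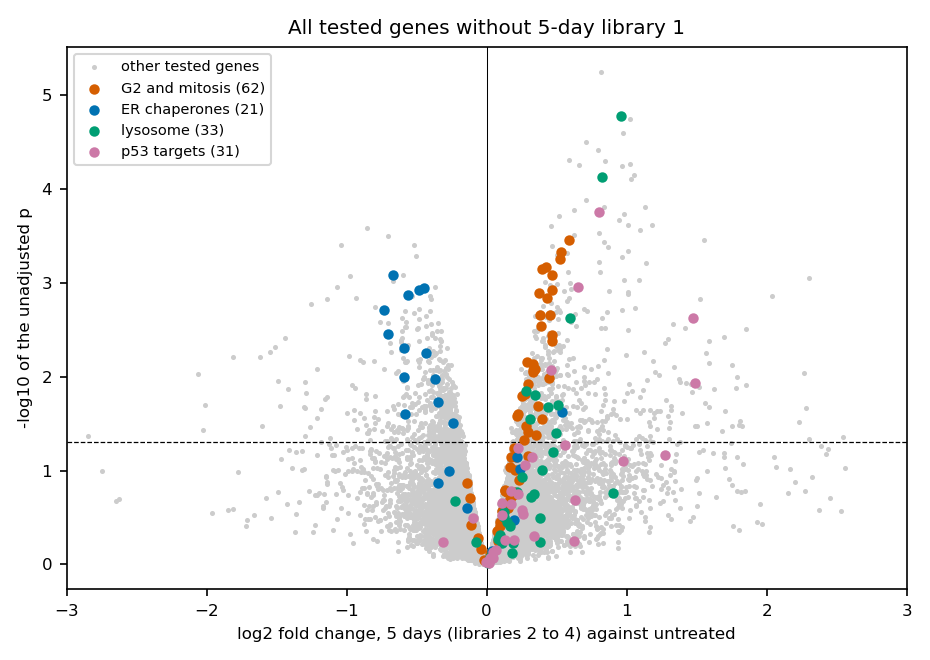
Log2 fold change at 5 days (libraries 2 to 4) against untreated on the x axis and -log10 of the unadjusted p on the y axis for the 14258 tested genes, with 4 lists in colour and a dashed line at 0.05. Of these, 13 genes lie beyond the plotted range of 3. Mitotic, lysosomal and p53 genes lie mostly right of 0 and ER chaperones mostly left of it.

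The genes with the smallest p were chosen after their values were seen. Without 5-day library 1, 14 genes had an adjusted p under 0.1, from 0.0728 to 0.0786, and all were higher. Pif1, a helicase that unwinds G-quadruplexes and helps replication past obstacles, lies at chr9:65587160-65595967, plus strand (mm10) and had the smallest p. It was at 54.1, 57.4 and 54.3 CPM untreated and 29.1, 101, 99.1 and 92.6 CPM at 5 days, a log2 fold change of 0.82 ± 0.09 (adjusted p = 0.0728) without 5-day library 1 and 0.54 ± 0.41 with it (adjusted p = 0.71). Arhgap11a, which acts in cytokinesis, was at 238, 219 and 212 CPM and 125, 345, 319 and 343 CPM. Both followed the order of the mitotic genes, lowest in 5-day library 1. Ctsd was also among the 14.

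Most of the 14 genes shared an order among the untreated libraries with ribosomal RNA. The annotated rRNA gene CT010467.1, at chr17:39846353-39848827, minus strand (mm10), was at 1191, 809.6 and 1046 CPM untreated and 1457, 1988, 1995 and 2221 CPM at 5 days. Its log2 fold change was 1.02 ± 0.14 without 5-day library 1 (adjusted p = 0.0728), and 10 of the other 13 genes, Ctsd included, had its order among the untreated libraries (1, then 3, then 2), against 20.51% of all tested genes. Pif1, Arhgap11a and Tmtc2 did not. Among the 10 were Gphn, at 279, 221 and 243 CPM and 296, 392, 432 and 464 CPM, and Cdk8, at 338, 252 and 274 CPM and 340.2, 484, 509 and 560.2 CPM. Lars2, outside the 14, was at 442, 272 and 370.1 CPM and 471, 695, 691 and 799.7 CPM. Libraries were selected for poly(A), and the part of rRNA carry-over in these rows was not tested. Mitochondrial rRNA had another order, summing to 1252, 810.1 and 1681 CPM untreated and 7061, 2453, 1154 and 817.8 CPM at 5 days.

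**Figure D5:**
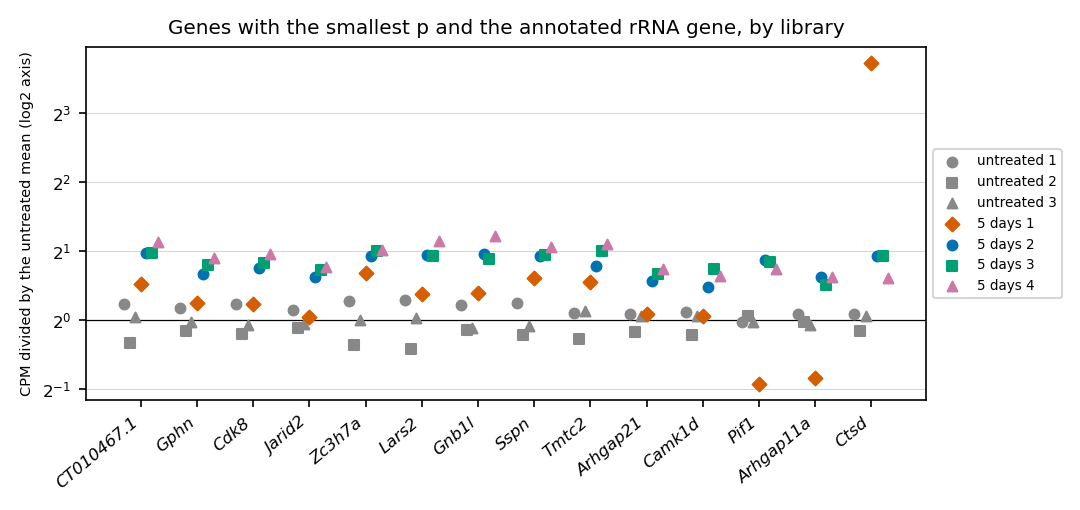
CPM of each library divided by the untreated mean on a log2 axis, for 14 genes, among them the annotated rRNA gene CT010467.1. Ctsd has the order of CT010467.1 among the untreated libraries, while Tmtc2, Pif1 and Arhgap11a do not. Lars2 is plotted although it is outside the genes with an adjusted p under 0.1. 5-day libraries 2 to 4 lie above untreated for all 14 plotted genes, and 5-day library 1 is lowest of all libraries for Pif1 and Arhgap11a.

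On the lower side, the smallest p belonged to Mfap2, followed by Hr, a corepressor, at 40.5, 36.4 and 34.1 CPM and 15.6, 24.2, 21 and 22.9 CPM, and Dynll1, a dynein light chain, at 230.1, 241 and 281 CPM and 142, 183, 170.0 and 171 CPM. Each lay below untreated in all 4 treated libraries, with adjusted p of 0.141, 0.151 and 0.158 without 5-day library 1. Cdc42ep4, a CDC42 effector, was the reverse, at 32.9, 38.3 and 30.8 CPM and 61.9, 57.5, 54.6 and 54.8 CPM, above untreated in all 4 with 5-day library 1 at the level of the others (adjusted p = 0.124).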

How the data were processed

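Whole-number counts per gene, as the authors deposited them, were used as they stood. The submitters' processing notes name TopHat2 2.1.1, HISAT2, edgeR and the mm10 build, and the deposited totals are nearly equal between libraries. The sources used here do not say how the totals came to be so close. Of 54446 gene rows, 54409 matched a symbol, and symbols and coordinates are from the GENCODE M21 annotation of mm10. Genes passing filterByExpr (minimum count 10, minimum total 15) were fitted with edgeR 4.0.16 (TMM, robust quasi-likelihood test, Benjamini-Hochberg adjustment over all tested genes), once with 7 libraries and once without 5-day library 1. CPM use the TMM factors of the 7 libraries. The steps were tested on simulated counts with 200 changed genes and the dispersions of these data. With all 7 libraries edgeR recovered 0% of 2-fold and 15% of 4-fold changes with 2 false calls, and DESeq2 18% and 60% with 51. Without 5-day library 1 edgeR recovered 56% and 85% with 13 false calls, and DESeq2 63% and 86% with 29. Alternatives used DESeq2 1.42.0, limma 3.58.1, other filters and scalings, and left out each library.

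The members and lists were chosen with earlier results of these data known, and each list is described by counts and its median rather than a set test. The rule for naming took up to 4 members of each list with the smallest unadjusted p without 5-day library 1, and a fixed set (Mycn, Myc, Aurka, Atr, Chek1, Cdkn1a, Mki67, Th, Ptprc, Cd68, Col1a1, Adipoq). Some genes that the rule covers are not reported here. Other named genes were chosen after their values were seen. Rows of histone, ribosomal protein and MHC genes share reads with near-identical copies and are uncertain, as are overlapping and antisense genes, since the sources used here do not say whether counting used strand.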

Additional observations from a re-analysis of the deposited data

Results flagged for a closer look

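For each list's summed level and each of 60 genes, the gap of the highest or lowest 5-day library to its nearest neighbour was divided by the range of the 4 libraries and set against Dixon's 95% critical value for 4 samples. Of 108 values, 54 passed it, 53 through 5-day library 1 and 1 through 5-day library 2. Chance passes about 1 in 20 groups, and the values share the same 4 libraries. 5-day library 1 was already known to stand apart, so its ratios describe how far it lay from the others and are no independent test of that.

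5-day library 1 was far above the others for immune and stromal lists. The ratio of gap to range was 0.952 for macrophage, 0.914 for lipid-associated macrophage, 0.949 for lysosome, 0.909 for clearance, 0.947 for interferon, 0.937 for MHC class I, 0.873 for MHC class II and 0.944 for chemokine genes. It was 0.847 for T cell, 0.951 for NK, 0.934 for B cell, 0.856 for plasma cell, 0.90 for neutrophil and 0.937 for mast cell genes. It was 0.88 for fibroblast, 0.851 for adipocyte and 0.947 for kidney tubule genes. Stress and metabolic lists followed, with 0.926 for ER chaperones, 0.945 for hypoxia and glycolysis, 0.943 for NRF2 targets, 0.871 for immediate early genes and 0.908 for fatty acid synthesis. The neuronal list was low in that library, at 0.935. The adrenal cortex list was the exception, at 0.948 through the high level of 5-day library 2.

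Single genes high in 5-day library 1 were Cdkn1a (0.832), Pdia3 (0.954), Pdia6 (0.968), Hspa5 (0.903), Sdf2l1 (0.881), Xbp1 (0.937), Acaca (0.867) and Myc (0.919). So were Ctsd (0.967), Man2b1 (0.948), Atp6v0d2 (0.942), Apoe (0.871), Marco (0.979), Mertk (0.914), Abca1 (0.948) and Nlrc5 (0.952). Ptprc (0.948), Cd68 (0.983), Col1a1 (0.884) and Adipoq (0.832) completed this side. Genes low in it were Mycn (0.887), Kif18a (0.839), Kif23 (0.875), Cdc20 (0.839), Ccnb1 (0.831), Pif1 (0.888), Mki67 (0.871), Top2a (0.935), Hand2 (0.904) and Celf4 (0.956).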

How the results depend on the processing

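The count of called genes was 0 in both comparisons by edgeR. With all 7 libraries it was 22 with DESeq2 (17 higher, 5 lower) and 0 in every other alternative run. Without 5-day library 1 it was 116 with DESeq2 (87 higher, 29 lower), 44 with no filter on low counts and 0 to 11 when each other library was left out, with 11 without untreated library 1 and 3 without 5-day library 4. Other scalings, a minimum of 5 CPM, the 24 h libraries in the fit and limma voom gave 0. The cause was not tested.

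Replicate numbers were not found to pair the tumours, since deviations of same-numbered libraries correlated at -0.12, 0.03 and -0.41. With a replicate block 0 genes were called in both comparisons, and the smallest adjusted p without 5-day library 1 was 0.154.

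Of 45 lists with a median without 5-day library 1, 23 kept its sign in each of 13 alternatives. The median for mitosis ran from 0.19 to 0.28, for ER chaperones from -0.52 to -0.30, for p53 targets from 0.08 to 0.30, for lysosome from 0.16 to 0.42 and for adrenergic identity from -0.43 to -0.08. Repair, MYC target, ribosome biogenesis, respiratory chain, hypoxia, fatty acid, fibroblast and endothelial medians changed sign in some. Totals of 5620005 to 5696436 counts limit the genes with the lowest levels.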
